A study of Mus musculus with 12 samples.

Results

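The 33 genes described here are the rows of the deposited expression table that lie on the mitochondrial chromosome, out of 28842 rows in all. They comprise 13 messenger RNA genes, 2 ribosomal RNA genes and 18 transfer RNA genes by the biotype the table gives. GENCODE M21 annotates 37 mitochondrial genes on the same coordinates (build GRCm38), and mt-Td, mt-Tf, mt-Tk and mt-Ts1 were not analysed here. The choice of rows used position only and no value of theirs, but it was made with earlier results of these data known.

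RNA was sequenced from the prefrontal cortex of male wild-type mice of the inbred strain C57BL/6J, with 6 libraries in each of 2 groups. During adolescence, on postnatal days 28 to 42, the saline group was given saline and the cocaine group 15 mg/kg cocaine. Animals of both groups then had a pre-test on day 75, received 1 mg/kg cocaine before training on days 76 and 77, and were tested for conditioned place preference, a measure of how strongly a drug-paired place is sought, on day 78. The cortex was dissected within 30 to 60 min of that test, so no group was free of cocaine and the contrast is of adolescent exposure. Nothing in the labels ties a library to its own mouse, and a p-value here sets a difference against the spread among libraries, which may be partly technical.

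Mitochondrial DNA is a small circle present in many copies in each cell, and it is transcribed from both strands into long precursors. The transfer RNAs lie between most messenger and ribosomal RNAs, and their excision by processing enzymes releases the mature RNAs. The proteins it encodes are core subunits of the respiratory chain and of ATP synthase, which supply most of the ATP that neurons use, and its ribosomal and transfer RNAs serve the translation of those subunits alone.

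The sequences that bear on the values below are of 2 kinds. The first are stretches that the mitochondrial DNA shares with an annotated insertion of mitochondrial sequence in the nuclear genome. Annotated transcripts of that insertion lie at chr1:24611535-24616197 on the minus strand (GRCm38), and the first 60 bases of the mt-Co3 gene (chrMT:8607-8666, plus strand) and of its copy Gm28437 (chr1:24613912-24613971, minus strand) are shown 5′ to 3′ with the start codon in capitals.
mt-Co3: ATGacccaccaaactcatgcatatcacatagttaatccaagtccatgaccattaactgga
Gm28437: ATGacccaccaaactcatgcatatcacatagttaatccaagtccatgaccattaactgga
These stretches differ at 0 of 60 bases. The first 60 bases of mt-Nd3 (chrMT:9459-9518, plus strand) and of its copy Gm28438 (chr1:24613060-24613119, minus strand) are shown in the same way, with the first codon in capitals.
mt-Nd3: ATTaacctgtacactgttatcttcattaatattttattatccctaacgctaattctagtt
Gm28438: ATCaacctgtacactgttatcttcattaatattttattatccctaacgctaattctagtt
They differ by T3C alone, counted from 1 at the first base of the mitochondrial gene with the mitochondrial base first, and this was the 1 substitution found over the 345 bases compared. The third stretch shows where mt-Atp8 and mt-Atp6 share bases on the same strand (chrMT:7915-7981, plus strand), with the 43 shared bases in capitals.
mt-Atp8 and mt-Atp6: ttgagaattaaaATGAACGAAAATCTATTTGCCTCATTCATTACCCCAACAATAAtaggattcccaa
A read that lies within those bases belongs to both genes.

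The second kind are the transfer RNA genes whose rows are described in most detail. All 4 are encoded on the minus strand and are shown 5′ to 3′ as transcribed, with the anticodon, found as the triplet centred in a loop closed by 5 stem pairs, in capitals.
mt-Tn (asparagine, chrMT:5089-5159): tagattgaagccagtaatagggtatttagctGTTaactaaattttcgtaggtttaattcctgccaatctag
mt-Tc (cysteine, chrMT:5192-5257): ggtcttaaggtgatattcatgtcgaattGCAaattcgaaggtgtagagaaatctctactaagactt
mt-Tp (proline, chrMT:15356-15422): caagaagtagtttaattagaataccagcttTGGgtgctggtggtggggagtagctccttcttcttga
mt-Te (glutamate, chrMT:14071-14139): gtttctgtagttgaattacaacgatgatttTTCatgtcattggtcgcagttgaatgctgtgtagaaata
The sequences of mitochondrial and nuclear transcripts are those of GENCODE M21.

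The values are normalised read counts, that is, reads per gene divided by 1 size factor per library. Depth ranged from 16.7 to 19.9 M reads per library, and a row at 0 reads is limited to about 3 reads of that total, for counting error only. Neuronal markers summed to between 157403 and 195871 normalised reads in every library, while the 6 mesenchymal markers (1 label names a mesenchymal cell line) summed to between 537 and 968, of which 2 were never above 50. One library stood apart: saline 5 held choroid plexus markers summing to 11519 against at most 122 elsewhere, with Ttr as the main one. Summed oligodendrocyte markers ranged from 34097 in saline 4 to 243182 in saline 1, and from 50639 to 200564 in the cocaine group. Fewer mitochondria, fewer cells of a type and less RNA per cell cannot be told apart in whole tissue.

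Mitochondrial rows took 4.03 ± 0.75 percent of all reads in the saline group, and in the cocaine group 3.91 ± 0.78 percent (SD, n = 6 each). The share ranged from 3.24 percent in saline 2 to 5.27 percent in saline 5, and from 3.30 percent in cocaine 2 to 5.43 percent in cocaine 3. Messenger RNA rows made up most of it, with 3.33 ± 0.51 percent for saline and 3.26 ± 0.70 percent for cocaine. Ribosomal RNA rows took 0.686 ± 0.246 and 0.639 ± 0.126 percent. Transfer RNA rows, with genes of 59 to 75 bases, took 0.0115 ± 0.0025 and 0.00906 ± 0.00206 percent. The groups overlapped in all of these shares. Leaving out cocaine 3 moved the difference in the total share from -0.12 to -0.42 percentage points, and leaving out saline 5 turned it to 0.13.

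Per unit of length the rows spanned more than 3 orders of magnitude. FPKM, reads scaled by the length of the gene and the size of the library, was computed for this comparison between genes. The highest mean over the 12 libraries was that of mt-Co1, the catalytic subunit of cytochrome c oxidase, at 7962 FPKM (range 6153 to 12111). It was followed by mt-Cytb, the core of complex III, at 5714 (range 4324 to 8519) and mt-Nd1 of complex I at 5089 (range 3952 to 7047). The ribosomal RNAs mt-Rnr1 and mt-Rnr2 stood at 3053 and 2344 FPKM, below these 3 messenger RNAs. How fully each kind of RNA entered the libraries was not tested, so the order between kinds is one of reads recovered. The other abundant rows, all subunits of complex I, were mt-Nd2 (2594), mt-Nd4 (2239), mt-Nd6 (1682) and mt-Nd5 (1339), with mt-Nd2 between the ribosomal RNAs and the others below both. The ranges of neighbours in the order of means overlapped over the libraries. These ranges do not compare rows within a library, where neighbours can keep the same order throughout. For example, mt-Nd1 (957 bases) had more reads than mt-Rnr1 (955 bases) in every library.

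**Figure D1:**
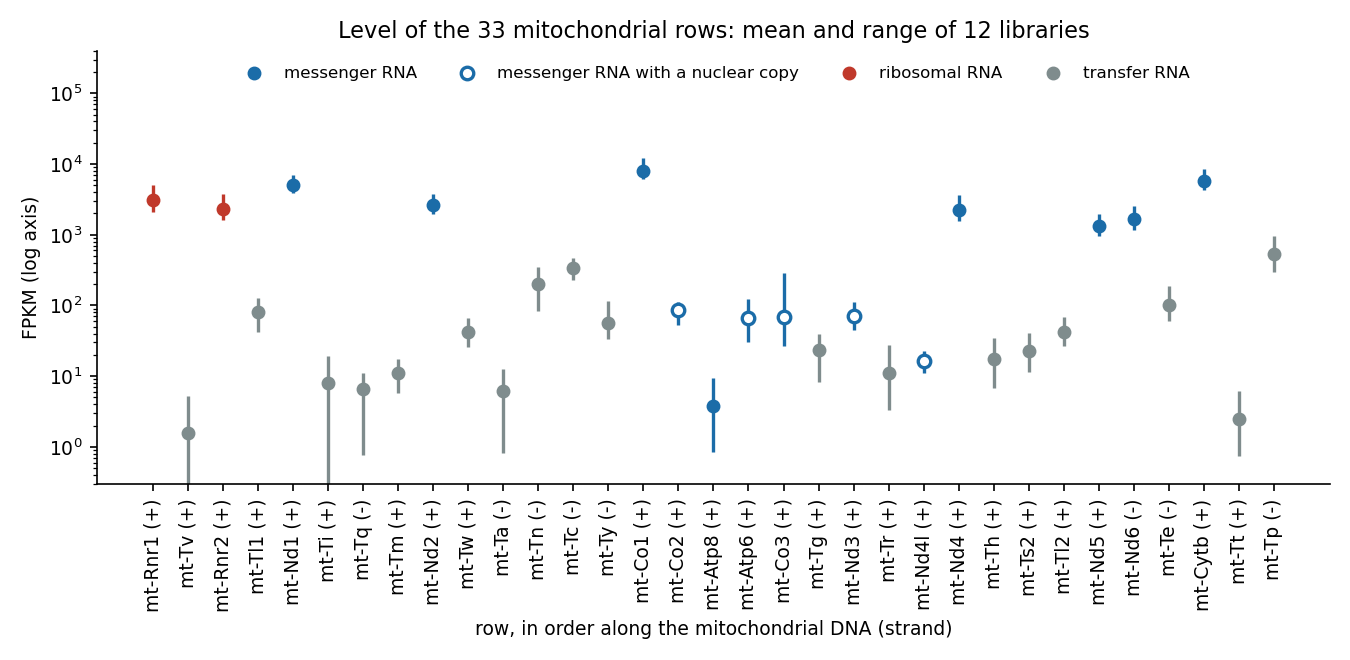
Mean FPKM (log axis, points) and range over the 12 libraries (bars) of the 33 rows in their order along the mitochondrial DNA, coloured by kind of RNA, with the strand in brackets. Open circles are the 5 messenger RNA rows with over 90 percent of their sequence in an annotated nuclear copy; they lie between 16.2 and 85.3 FPKM, below the 7 messenger RNA rows at 1339 to 7962. Bars that reach the lower edge include a library at 0.

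In 1 stretch of the mitochondrial DNA, 6 messenger RNA rows were far below the other 7. These were mt-Co2 at 85.3 FPKM, mt-Nd3 at 71.9, mt-Co3 at 69.8, mt-Atp6 at 65.9, mt-Nd4l at 16.2 and mt-Atp8 at 3.83. mt-Co2 and mt-Co3 are core subunits of cytochrome c oxidase, mt-Atp6 and mt-Atp8 belong to ATP synthase, and mt-Nd3 and mt-Nd4l to complex I. Together they took between 0.381 and 1.19 percent of the messenger RNA reads of the mitochondrial rows, with saline 6 at the top of that range.

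Of these 6 rows, 5 have a near-complete copy among the annotated nuclear transcripts. Of their 50-base windows, 100 percent of mt-Co2, 99.5 percent of mt-Atp6, 99.9 percent of mt-Co3, 98 percent of mt-Nd3 and 98.8 percent of mt-Nd4l were found letter for letter in an annotated nuclear transcript. The chromosome 1 copies were identical to the mitochondrial gene over 681 bases for mt-Co2 (Gm28661), 678 for mt-Atp6 (Gm10925), 783 for mt-Co3 (Gm28437) and 294 for mt-Nd4l (Gm10222). A read from such a stretch matches both places equally well, so the values of these rows are uncertain. How the counting treated such reads is not given in the sources used here, and its part in the low values was not tested. For mt-Atp8 no annotated nuclear transcript searched held a 50-base window. The 43 bases that mt-Atp8 shares with mt-Atp6 are, however, also in Gm10925, which is identical to mt-Atp6 from its first base. The copies Gm28661 and Gm10925 lie on either side of the rest of mt-Atp8. They are 233 bases apart on chromosome 1, and the matching points of the mitochondrial DNA are also 233 bases apart. The chromosome 1 sequence between them was not analysed here.

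Sharing was partial in other rows that were abundant. For mt-Nd4, 62.2 percent of the windows were in a nuclear transcript, for mt-Co1 51.1 percent, for mt-Nd2 8.19 percent, for mt-Nd5 7.61 percent and for mt-Rnr2 1.04 percent. The remaining 23 rows, all 18 transfer RNA rows among them, had none in the transcripts searched. The share of windows therefore did not order the rows by level throughout, since mt-Co1 was the highest row of all. Sequence between annotated transcripts was not searched, so copies there would be missed. The copies of mt-Co3 and mt-Nd3 are 69 bases apart, as are the genes themselves, with mt-Tg between them. On chromosome 2, Gm13339 and Gm13340 hold mt-Nd2 and mt-Co1 sequence. mt-Tn and mt-Tc lie between those genes, and the chromosome 2 sequence between the copies was not analysed.

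The nuclear copies themselves carried reads. Gm28661 ran at 579, 926 and 1078 normalised reads (lowest, median and highest) in the saline group and 688, 936 and 1039 in the cocaine group, while mt-Co2 had 669, 1028 and 1251 and 788, 1007 and 1356. The copy thus held 41.2 to 50.1 percent, with a median of 46.8 percent, of the reads of both. For Gm10925 and mt-Atp6 the copy held 29.2 to 63.6 percent, with a median of 46.5 percent. For Gm28437 and mt-Co3 it held 11.2 to 46.6 percent, with a median of 35.6 percent, the lowest being saline 6. For Gm28438 and mt-Nd3 it held 7.74 to 14.2 percent, with a median of 10.5 percent. For Gm10222 and mt-Nd4l it held 18.6 to 42.7 percent, with a median of 32.5 percent. The near-equal division between mt-Co2 and its copy in every library contrasts with the wider spread for mt-Atp6. Against the abundant rows the copies were small: Gm28439 held 0.293 to 0.578 percent, with a median of 0.387 percent, of its reads together with mt-Nd4. None of the 7 fixed copies passed the test between groups. At an unadjusted p under 0.05 by limma there were 0 of 7, against 1.14 percent of all tested genes. Gm29216, a copy of the end of mt-Co1, had the largest difference on the log2 scale at 0.40 ± 0.38 (SE).

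**Figure D2:**
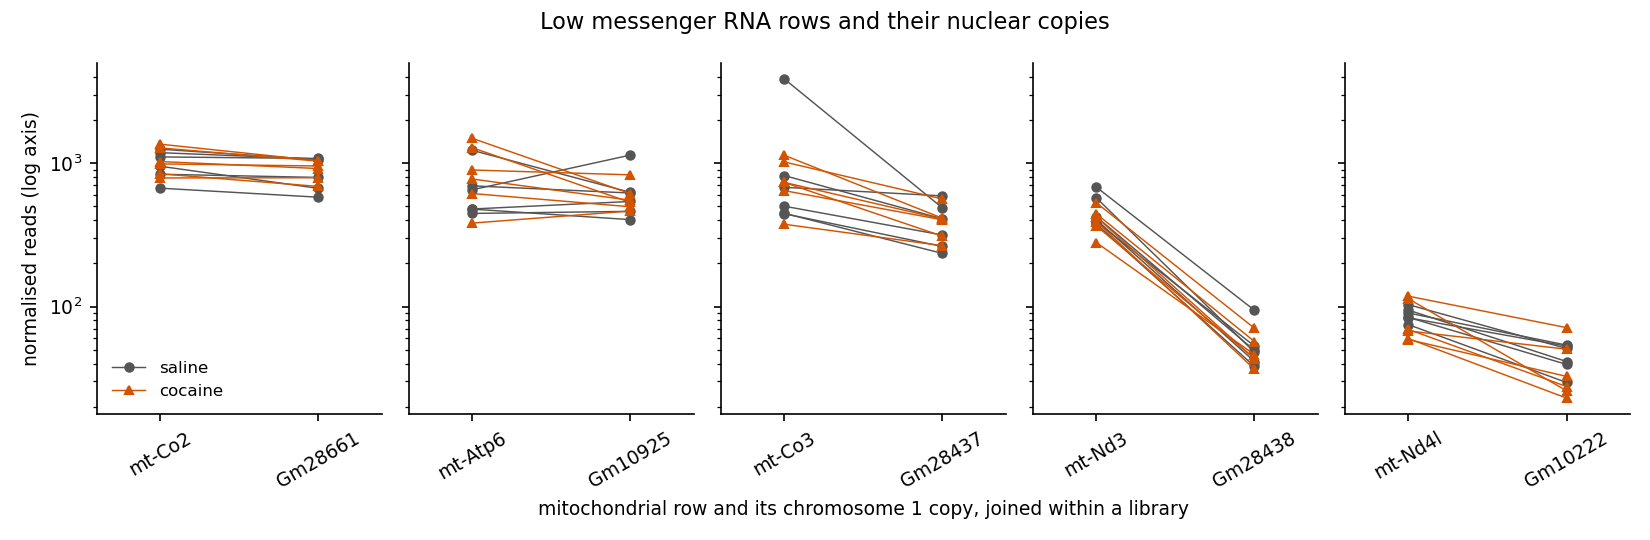
Normalised reads (log axis) of 5 low messenger RNA rows and of their chromosome 1 copies, 1 line per library, grey circles for saline and orange triangles for cocaine. The mt-Co2 lines are nearly level, and the saline 6 line of mt-Co3 starts at 3865 while its copy has 487, within the range of the other libraries.

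Between the cocaine and saline groups no mitochondrial row passed the test. In limma's fit over all 13016 tested genes, with Benjamini-Hochberg adjustment, 0 of 33 rows had an adjusted p under 0.05, as had 0 percent of all tested genes. At an unadjusted p under 0.05 there were 3 rows, mt-Tn, mt-Tc and mt-Tp, against 1.14 percent of all tested genes, and all 3 were lower in the cocaine group, against 0.469 percent of all genes at that p and direction. Count tests on the recovered reads called 0 of 29 rows (edgeR, against 0 percent of all genes it tested) and 0 of 33 (DESeq2, against 0.0104 percent). Each had 4 rows at an unadjusted p under 0.05, the same 3 and mt-Atp8, against 1.58 percent of all genes by edgeR and 1.48 percent by DESeq2. The authors' deposited table gave an adjusted p under 0.05 for 0 of 33 rows and an unadjusted one for 4. In 0 of 33 rows were the groups free of overlap, against 0.0768 percent of all tested genes.

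By kind of RNA, 5 messenger RNA rows were higher and 8 lower in the cocaine group, with a median log2 difference of -0.019. Both ribosomal RNA rows were lower, with a median of -0.054, and 7 transfer RNA rows were higher and 11 lower, with a median of -0.048. Over all tested genes the median was 0.0076 and 53.7 percent were higher. These counts did not change under either scaling to library totals, but each median turned positive under some alternative: library weights gave 0.023 for the messenger and 0.022 for the ribosomal RNA rows, and edgeR gave 0.022 for the transfer RNA rows. All 3 medians were well within the spread between libraries, whose SD was 0.23, 0.38 and 0.33.

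**Figure D3:**
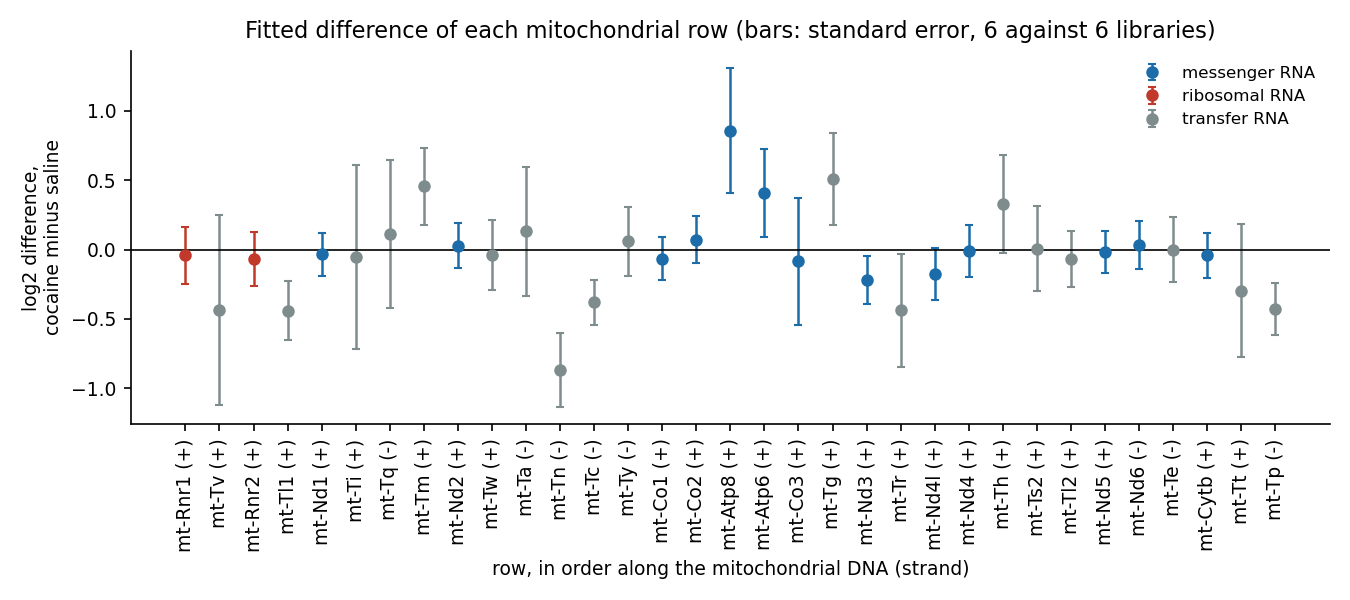
Log2 difference between cocaine and saline libraries for each of the 33 rows in order along the mitochondrial DNA (points, coloured by kind of RNA) with the standard error of limma's fit (bars, 6 against 6 libraries). Most points lie within 1 standard error of 0; mt-Tn at -0.87 is the lowest and mt-Atp8 at 0.86 the highest.

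The abundant complex I messenger RNAs overlapped between the groups and did not pass the test. For mt-Nd1, part of the membrane arm that binds ubiquinone, the lowest, median and highest values were 69569, 85562 and 115780.0 in saline and 69074, 77838 and 114013 in cocaine libraries, a log2 difference of -0.033 ± 0.15 (SE; exact p = 0.844). Exact p-values come from the two-sided exact permutation test of 6 against 6 libraries, whose smallest possible value is 0.00216. The groups covered almost the same range. For mt-Nd2, a proton-pumping subunit, they were 36567, 45143 and 67945 and 39781, 44764 and 68367 (0.028 ± 0.16, exact p = 0.835). For mt-Nd4, also a proton-pumping subunit, they were 39323, 51889 and 85979 and 40882, 50789 and 71737 (-0.01 ± 0.19, exact p = 0.959). In each group both were highest in 1 library, saline 5 and cocaine 3. For mt-Nd5, the most distal pumping subunit, they were 36345, 42032 and 53644 and 30792, 41377 and 62093 (-0.019 ± 0.15, exact p = 0.918). For mt-Nd6, the 1 messenger RNA encoded on the minus strand, they were 11023, 15375 and 22901 and 12637, 14845 and 20714 (0.034 ± 0.17, exact p = 0.844). mt-Nd6 shares 14 bases with mt-Nd5 on the other strand, and the strand setting of the counting is not given in the sources used here, so antisense reads of either gene cannot be told apart from its own.

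The small complex I rows had fewer reads and did not pass the test. For mt-Nd3 the lowest, median and highest values were 376, 412 and 680.0 in saline and 279, 405 and 529 in cocaine libraries (-0.22 ± 0.17, SE; exact p = 0.281). For mt-Nd4l, whose last 7 bases are the first of mt-Nd4, they were 74.7, 87.0 and 103 and 58.8, 68.4 and 118 (-0.17 ± 0.19, exact p = 0.39). In mt-Nd3 the groups overlapped. In mt-Nd4l 4 cocaine libraries lay below all 6 saline libraries and the other 2, cocaine 1 and cocaine 3, above all of them.

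The core subunits of complexes III and IV had overlapping values in the groups and did not pass the test. For mt-Cytb the lowest, median and highest values were 89992, 112471 and 167318 in saline and 91537, 107175 and 145921 in cocaine libraries (-0.041 ± 0.16, SE; exact p = 0.807). For mt-Co1 they were 204443, 210781 and 261879 and 164509.7, 198452 and 326122 (-0.065 ± 0.15, exact p = 0.69). In the cocaine group mt-Co1 was far higher in cocaine 3 than in the other 5 libraries, and without that library its log2 difference was -0.19. For mt-Co2, which receives electrons from cytochrome c, they were 669, 1028 and 1251 and 788, 1007 and 1356 (0.07 ± 0.17, exact p = 0.71). For mt-Co3 they were 444, 589 and 3865 and 375, 734 and 1134 (-0.085 ± 0.46, exact p = 0.913). The saline range of mt-Co3 rests on saline 6, at 3865 normalised reads against 819 in the next library. Without it the log2 difference turned from -0.085 to 0.38, and its copy Gm28437 had 235, 362 and 591 and 266, 405 and 562 in the 2 groups.

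The ATP synthase rows were on average higher in the cocaine group and did not pass the test. For mt-Atp6, part of the proton channel, the lowest, median and highest values were 446, 565 and 1228 in saline and 382, 835 and 1489.6 in cocaine libraries (0.41 ± 0.32, SE; exact p = 0.286). Leaving out 1 library moved this difference from 0.24 without cocaine 1 to 0.63 without cocaine 2. Summed with its nuclear copy, it was 0.20, an alternative chosen after seeing the data. For mt-Atp8, a small membrane subunit, the values were 3.19, 7.23 and 17.1 and 6.96, 14.4 and 34.3, with means of 9.01 ± 5.00 and 18.5 ± 12.5 (SD, n = 6). Its log2 difference was 0.86 ± 0.45 (SE), with p = 0.0788 by limma, 0.0471 by edgeR and 0.037 by DESeq2, none of them past adjustment, and an exact permutation p of 0.117 (two-sided). The cocaine values were uneven: 3 libraries were between 6.96 and 9.88 and the other 3 between 18.9 and 34.3. Without cocaine 2 the log2 difference was 0.64, and without cocaine 5 it was 0.65. mt-Atp6 and mt-Atp8, which overlap, did not have their highest cocaine values in the same library: mt-Atp6 was highest in cocaine 1, where mt-Atp8 was lowest.

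The ribosomal RNAs were close to each other in every library and overlapped between groups. mt-Rnr1, of the small mitochondrial ribosomal subunit, had lowest, median and highest values of 35471, 49145 and 82374 in saline and 37214, 50442 and 59368 in cocaine libraries (-0.042 ± 0.21, SE; exact p = 0.866). mt-Rnr2, of the large subunit, had 45477, 62994 and 102646 and 49723, 63210.3 and 73061 (-0.066 ± 0.19, exact p = 0.762). Saline 5, the library with choroid plexus markers, was the highest of all for both. Without it the log2 differences turned positive, at 0.10 for mt-Rnr1 and 0.068 for mt-Rnr2. The ratio of the 2 RNAs was narrow, at 74.2 to 82.4 mt-Rnr1 reads per 100 mt-Rnr2 reads over the 12 libraries.

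Among the transfer RNAs, 3 rows encoded on the minus strand were lower on average in the cocaine group, with small unadjusted p-values. The strand setting of the counting is not given in the sources used here, so reads of the opposite strand may be counted in these rows. mt-Tn, the asparagine transfer RNA, had lowest, median and highest values of 223, 299 and 414 in saline and 104, 166 and 386 in cocaine libraries. In the cocaine group 5 libraries lay between 104 and 169, below all 6 saline libraries, while the sixth, cocaine 1, stood at 386 among the highest saline values. Means were 314 ± 74.2 and 185 ± 102 (SD, n = 6 each), a log2 difference of -0.87 ± 0.26 (SE). Its unadjusted p was 0.00544 by limma, 0.015 by edgeR and 0.00527 by DESeq2, the exact permutation p was 0.026 (two-sided), and the adjusted p was 1 by limma. The unadjusted p stayed under 0.05 when any single library was left out, at 4.4e-05 without cocaine 1 and at most 0.0147 without another.

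mt-Tc, the cysteine transfer RNA, lies 32 bases from mt-Tn on the same strand. Its lowest, median and highest values were 339.8, 448 and 566 in saline and 258, 319 and 463 in cocaine libraries, with means of 446 ± 88.8 and 345 ± 80.3 (SD, n = 6). The log2 difference was -0.38 ± 0.16 (SE; limma p = 0.0351; exact permutation p = 0.0628), and the groups overlapped. mt-Tp, the proline transfer RNA at the far end of the gene order, had 573, 641 and 1108 and 357, 548 and 677, with means of 724 ± 199 and 539.7 ± 137. Its log2 difference was -0.43 ± 0.19 (SE; limma p = 0.0387; exact permutation p = 0.0801). In saline 5 mt-Tp reached 1108 normalised reads, against 766 in the next saline library, and without saline 5 its log2 difference was -0.30. The unadjusted p stayed under 0.05 in 5 of 12 fits with a library left out for mt-Tc and in 7 of 12 for mt-Tp.

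**Figure D4:**
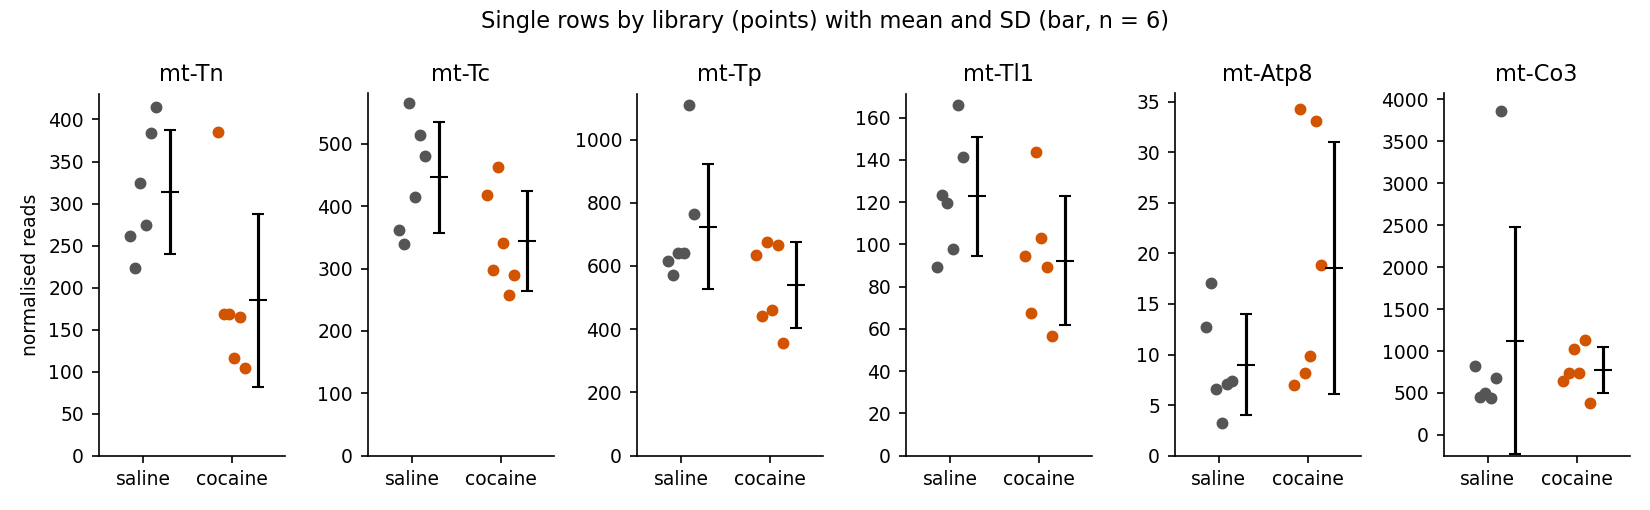
Normalised reads per library (points) with the mean and SD of each group (bar, n = 6) for mt-Tn, mt-Tc, mt-Tp, mt-Tl1, mt-Atp8 and mt-Co3. In mt-Tn 5 cocaine libraries lie below every saline library and cocaine 1 at 386 does not, while the saline spread of mt-Co3 is that of saline 6 at 3865.

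The other minus-strand transfer RNA rows with enough reads had differences near 0. mt-Te, the glutamate transfer RNA, had lowest, median and highest values of 75.5, 121 and 163 in saline and 72.5, 111 and 224 in cocaine libraries (-0.0018 ± 0.23, SE; exact p = 0.994). mt-Ty, for tyrosine, which lies 2 bases from mt-Tc, had 38.5, 64.5 and 85.7 and 48.3, 56.9 and 136 (0.06 ± 0.25, exact p = 0.844). In both rows cocaine 3 was well above the other cocaine libraries. Of the 5 minus-strand rows with a mean of at least 10 normalised reads, 4 were lower and 1 higher, with a median of -0.38, and of the 8 such plus-strand rows 4 were higher and 4 lower, with a median of -0.017. Whether the strands differ was not tested. With the strand setting of the counting not given, strand here is that of the gene and may not be that of the reads. Minus-strand rows held 76.5 to 87.1 percent of transfer RNA reads, and all of mt-Tn, mt-Tc and mt-Tp lie in that share.

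The plus-strand transfer RNA rows had few reads. Of these 11 rows, 0 had an unadjusted p under 0.05 by limma, against 1.14 percent of all tested genes. mt-Tl1, a leucine transfer RNA, lies directly after mt-Rnr2 and was the most abundant of them, with lowest, median and highest values of 89.3, 121 and 166 in saline and 56.7, 91.8 and 144 in cocaine libraries (-0.44 ± 0.21, SE; limma p = 0.0582; exact permutation p = 0.0909). mt-Tl2, the other leucine transfer RNA, had 32.4, 54.4 and 81.2 and 42.5, 47.9 and 64.5 (-0.069 ± 0.20, exact p = 0.74). mt-Tw, for tryptophan, had 36.3, 44.9 and 75.9 and 30.4, 48.5 and 74.3 (-0.04 ± 0.25, exact p = 0.892). These 3 rows overlapped between groups, and mt-Tl1 stood nearest to the threshold. mt-Tg, for glycine, had 9.81, 24.2 and 28.6 and 12.9, 36.9 and 46.8 (0.51 ± 0.33, exact p = 0.197). mt-Tm, for methionine, had 7.43, 10.5 and 15.3 and 6.96, 16.2 and 22.2 (0.46 ± 0.28, exact p = 0.113). mt-Th, for histidine, had 7.85, 17.98 and 27.7 and 8.40, 23.3 and 42.3 (0.33 ± 0.35, exact p = 0.396). These 3 rows had higher means in the cocaine group, with standard errors above 0.25.

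mt-Ts2, for serine, had 11.8, 23.8 and 31.4 in saline and 12.9, 20.7 and 41.7 in cocaine libraries (0.0063 ± 0.31, SE; exact p = 0.987). mt-Tr, for arginine, had 3.92, 14.6 and 32.4 and 4.60, 10.8 and 16.1 (-0.44 ± 0.41, exact p = 0.327). The remaining rows mt-Tv, mt-Ti, mt-Tq, mt-Ta and mt-Tt had means between 1.91 and 9.68 normalised reads, and exact p-values between 0.502 and 0.944. The standard errors of their log2 differences were 0.46 to 0.69, the widest of the mitochondrial rows.

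Values varied between libraries of the same group, in part along a time tag in the labels, day 0 or day 5, that 3 libraries of each group carry each and that no source explains. Mitochondrial rows took 3.70 to 5.43 percent of reads in the cocaine libraries tagged day 0 and 3.30 to 3.54 percent in those tagged day 5, without overlap, and 3.90 to 5.27 and 3.24 to 4.36 percent in the saline libraries. The tag is balanced between the groups. Over the 9 abundant rows (7 messenger and 2 ribosomal RNAs) each pair was compared across the 12 libraries on the log2 scale, 36 pairs in all. The median Pearson r was 0.898, against 0.773 among the 6 libraries of day 0 and 0.825 among the 6 of day 5, and 22 pairs had adjusted permutation p-values under 0.05 for both Pearson's r and Spearman's rho. mt-Nd4 and mt-Cytb were closest, with r = 0.994 (permutation p = 1e-05, the smallest that 100000 resamples give; adjusted 3.27e-05) and rho = 0.986 (adjusted p = 5.14e-05), and with r = 0.984 without saline 5 and cocaine 3. Within groups it was 0.998 in saline and 0.996 in cocaine libraries, and within tags 0.996 for day 0 and 0.980 for day 5. These values share the library's depth scaling and the amount of mitochondrial RNA in it.

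A pair of messenger RNAs stood apart from the rest. mt-Co1 and mt-Nd5 had r = 0.924 with each other (permutation p = 1e-04; adjusted 0.00018) and rho = 0.769 (adjusted p = 0.00808), and r = 0.788 without saline 3 and cocaine 3. That relation did not hold within both tags, with r = 0.974 for day 0 and 0.259 for day 5. With mt-Cytb, however, mt-Co1 had r = 0.242 (adjusted permutation p = 0.525) and rho = 0.028, and with mt-Rnr2 r = -0.026 (adjusted p = 0.972). The number of mt-Co1 reads per 100 mt-Cytb reads therefore ranged from 124 in saline 5 to 246 in saline 4 and from 145 in cocaine 5 to 231 in cocaine 2, with means of 197 ± 49.0 and 191 ± 36.2 (SD, n = 6). mt-Nd5 reads per 100 mt-Nd4 reads ranged from 53.0 in saline 5 to 114 in saline 3, and from 57.5 to 113 in the cocaine group. The summed oligodendrocyte markers were related to the mt-Co1 to mt-Cytb ratio with opposite signs in the groups, with r = -0.82 in saline and 0.68 in cocaine libraries, and r = -0.36 over all 12 (permutation p = 0.253; adjusted over 6 relations 0.304; rho = -0.43; r = -0.21 without saline 1 and saline 4; r = -0.277 for day 0 and -0.655 for day 5).

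**Figure D5:**
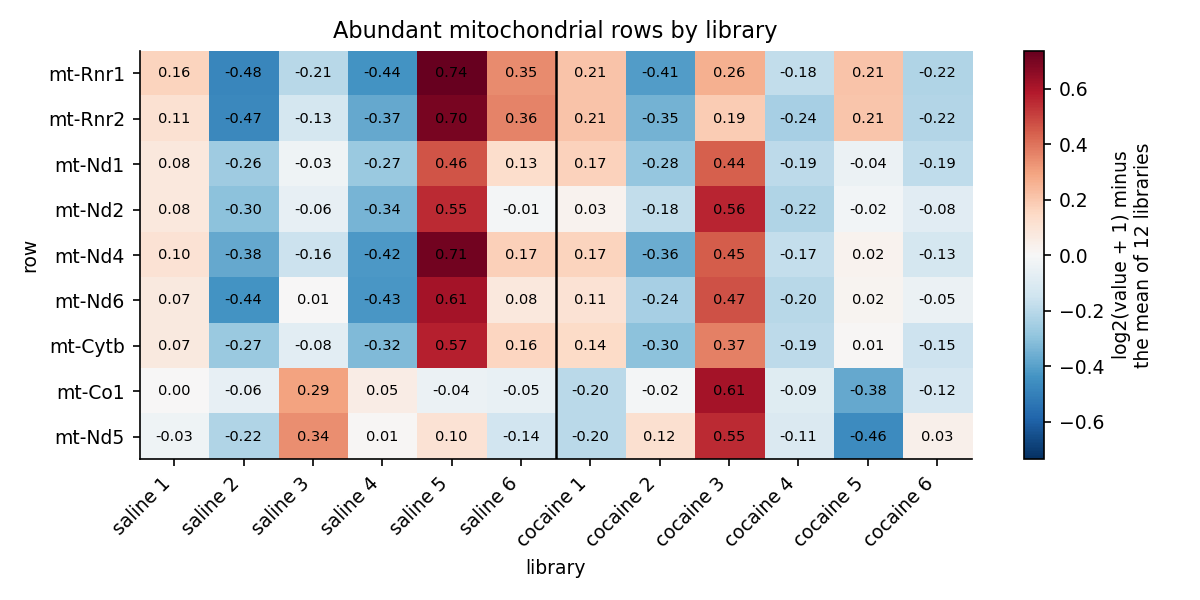
Log2(value + 1) of the 9 abundant rows minus each row's mean over the 12 libraries, by library (columns, saline left of the line, cocaine right). In saline 5 the upper 7 rows are 0.46 to 0.74 above their mean while mt-Co1 and mt-Nd5 are at -0.04 and 0.10, and in cocaine 3 all 9 rows are above their mean.

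Summed by kind, the rows rose and fell together only in part. Across the 12 libraries the summed messenger and ribosomal RNA rows had r = 0.674 and rho = 0.748, the messenger and transfer RNA rows r = 0.691 and rho = 0.615, and the ribosomal and transfer RNA rows r = 0.651 and rho = 0.678, given as a description. Without the 2 libraries farthest from the median these r were 0.587, 0.584 and 0.518, within the libraries tagged day 0 they were 0.352, 0.734 and 0.549, and within those tagged day 5 0.979, 0.567 and 0.508. For every 100 messenger RNA reads there were 0.343 ± 0.040 transfer RNA reads in the saline group and 0.278 ± 0.039 in the cocaine group (SD, n = 6). The saline values ran from 0.270 to 0.385 and the cocaine values from 0.217 to 0.325, so the groups overlapped; most of this sum is mt-Tp, mt-Tc and mt-Tn. For single rows, mt-Tn and mt-Tc had r = 0.727 (permutation p = 0.00895; adjusted over 6 relations 0.0179), rho = 0.790 (adjusted p = 0.020) and r = 0.701 without cocaine 4 and cocaine 6, and within groups r was 0.813 in saline and 0.490 in cocaine libraries, and within tags 0.592 for day 0 and 0.873 for day 5. The other 3 pairs of single rows in this family had an adjusted permutation p under 0.05 for Pearson's r but not for Spearman's rho, each with an adjusted p of 0.051. They were mt-Tn and mt-Tp (r = 0.769, rho = 0.622; r = 0.361 for day 0 and 0.958 for day 5), mt-Tc and mt-Tp (r = 0.655, rho = 0.636; r = 0.340 and 0.940) and mt-Tp and mt-Cytb (r = 0.743, rho = 0.678; r = 0.812 and 0.417).

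No nuclear gene that serves the mitochondrial genome passed the test between groups either. In limma's fit, 0 members of each of 6 lists had an adjusted p under 0.05, against 0 percent of all tested genes. At an unadjusted p under 0.05 there were also 0 in each list, against 1.14 percent of all tested genes. The exact test gave an unadjusted p under 0.05 for some of the members named. Those members were picked by their smallest limma p on the same values, so their exact p-values do not change this result. Of 19 tested genes for transcription, replication and packaging of mitochondrial DNA, 10 were higher and 9 lower, with a median log2 difference of 0.018. Polrmt, the mitochondrial RNA polymerase, averaged 544 ± 40.3 normalised reads without and 491 ± 70.2 with adolescent cocaine (SD, n = 6; log2 difference -0.16 ± 0.10, SE; exact p = 0.13), and Mterf1b, of the termination factor family, 23.3 ± 7.93 and 29.6 ± 7.85 (exact p = 0.195). Of 32 genes for mitochondrial RNA processing, stability and decay, 23 were higher and 9 lower (median 0.036). Among them Supv3l1, the helicase of the mitochondrial RNA degradosome, had 324 ± 32.8 and 284 ± 15.8 (-0.19 ± 0.088; limma p = 0.0525, exact p = 0.0303), and Mrm2, a methyltransferase of the large ribosomal RNA, 198 ± 21.2 and 219 ± 29.0 (exact p = 0.195).

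Of 21 genes that load mitochondrial transfer RNAs with amino acids, 15 were higher and 6 lower (median 0.016). Rars2, which loads the arginine transfer RNA, averaged 229.8 ± 11.6 in the saline group and 263 ± 29.3 in the cocaine group (SD, n = 6; log2 difference 0.19 ± 0.089, SE; limma p = 0.051, exact p = 0.013). Pars2, which loads mt-Tp with proline, had 149.5 ± 12.9 and 130.1 ± 9.48 (-0.20 ± 0.094; limma p = 0.0538, exact p = 0.013). Of 12 regulators of mitochondrial biogenesis, 3 were higher and 9 lower (median -0.035). The members with the smallest limma p there were Tfeb, a regulator of lysosomal genes (-0.19 ± 0.22; exact p = 0.433), and Nrf1, an activator of nuclear genes for mitochondrial proteins (-0.082 ± 0.11; exact p = 0.437).

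The nuclear-encoded partners of the mitochondrial subunits were mostly on the higher side by small amounts. Of 82 tested respiratory chain and ATP synthase subunits 72 were higher and 10 lower, with a median of 0.042, and of 78 mitochondrial ribosomal proteins 59 were higher and 19 lower, with a median of 0.048. For comparison, 53.7 percent of all tested genes were higher, with a median of 0.0076. By complex the counts of higher against lower were 34 and 4 for complex I, 4 and 0 for complex II, 8 and 1 for complex III, 10 and 4 for complex IV and 16 and 1 for ATP synthase. The smallest limma p-values were those of the complex I subunit Ndufb2, with 291 ± 20.5 in the saline group and 332 ± 39.8 in the cocaine group (SD, n = 6; 0.18 ± 0.091, SE; limma p = 0.0648, exact p = 0.0108), and of the complex II anchor Sdhd (0.13 ± 0.085; exact p = 0.119). Among ribosomal proteins they were those of Mrps12 (0.16 ± 0.082; exact p = 0.0541) and Mrpl36 (0.27 ± 0.15; exact p = 0.113). These counts are a description, with no test.

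The 5 tested genes outside the mitochondrial DNA whose pattern over the 12 libraries was most like the summed mitochondrial messenger RNA rows were chosen by that likeness. They were Gm14586 (Pearson r = 0.936), Bcl10 (0.934), Cops2 (0.914), Sh3bgrl (0.903) and Sept7 (0.902), on the log2 scale. Sept7 encodes a septin, Cops2 a subunit of the COP9 signalosome and Bcl10 a signalling adaptor. None of the 5 passed limma's test between groups, with unadjusted p-values from 0.486 to 0.904.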

How the data were processed

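One table covers the whole series. Per the file headers, the authors deposited in it 1 number for each gene in each library, the length of the gene, and their own log2 fold change, p-value and adjusted p-value. Although its name says FPKM, each number is a signal that the authors obtained by dividing a read count by the size factor of the library: in all 12 libraries 100 percent of the numbers came out as whole reads, with a tolerance of 0.01 read. The submitters' processing notes name HISAT2 2.0.5 and the human build hg38, while the gene IDs are of mouse. For the counter, the strand setting and the annotation, the sources used here give nothing. All 33 mitochondrial rows have the positions of GENCODE M21 (GRCm38). A spreadsheet had turned 25 gene names into dates, and these were looked up again by gene ID.

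Libraries were grouped by the treatment label. A label for a mesenchymal cell line and a time tag of day 0 or 5 do not match the tissue and formed no group of the test. The tag served to describe shares and correlations within it, and as a covariate in an alternative fit. In both groups day 0 is carried by replicates 1, 3 and 5 and day 5 by replicates 2, 4 and 6. The test, planned when the values were taken for FPKM, was limma 3.58.1 (R 4.3.3) on log2(value + 1) with a variance trend, two-sided, over all 12 libraries and the 13016 rows with a mean FPKM of at least 1, computed here from value, length and column sum, with Benjamini-Hochberg adjustment. Differences are cocaine minus saline on that log2 scale, so changes of low genes are understated. All 33 mitochondrial rows passed the filter, which is lenient for genes as short as transfer RNAs, so low rows stand near 3 reads. edgeR 4.0.16 and DESeq2 1.42.0 were run on the recovered read counts. On simulated data limma recovered 100 percent of genes changed by 1 or 2 on the log2 scale among 13016, and called 8 unchanged genes. Only genes with a mean of at least 50 reads were changed there, and all genes were drawn with the same dispersion. The simulation therefore does not show what could be detected in rows with fewer reads or a wider spread. Pairing of libraries by replicate number was checked by the correlation of same-numbered libraries' deviations from their group means. Shared sequence was counted as 50-base windows of each mitochondrial gene found in transcripts of nuclear genes in GENCODE M21.

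The rows, lists and rules were chosen with earlier results of these data known. Every mitochondrial row is named. Transfer RNA rows with a mean of at least 10 or an unadjusted p under 0.05 are given in full, as are the 2 members with the smallest p of each list and the 5 genes most correlated with the summed messenger RNA rows. Red blood cell, neuronal, astrocyte, microglial and vascular markers were summed as well and formed no group. Alternatives covered pseudocount, filter, scaling, variance model, library weights, replicate number, time tag, count tests and leaving out each library.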

Additional observations from a re-analysis of the deposited data

Results flagged for a closer look

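Single libraries stood apart from the other 5 of their group in 9 of the 66 row and group combinations examined, by Dixon's test (the gap to the nearest library as a share of the range, above the critical value for 6 libraries). Chance flags about 1 in 20. In cocaine 3 there were 4: mt-Co1 at 326122 normalised reads, mt-Nd2 at 68367, mt-Te at 224 and mt-Ty at 136, in the library with the highest share of mitochondrial reads, at 5.43 percent. In saline 6, mt-Co3 stood at 3865 and mt-Atp6 at 1228, while their copies Gm28437 and Gm10925 were within the range of the other saline libraries, at 487 and 626. The others were mt-Co1 in saline 3 at 261879, mt-Tp in saline 5 at 1108, the library with choroid plexus markers summing to 11519, and mt-Tn in cocaine 1 at 386. The part of library composition in these values was not tested.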

How the results depend on the processing

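No mitochondrial row was called under any of the 28 alternatives with a test, which gave 912 single-row values, and the lowest adjusted p among them was 0.573. Direction was less firm: 82 of the 912 differed in sign from the reported value, each smaller than its standard error in one of the 2 fits. The median log2 difference of messenger RNA rows ranged from -0.12 (without cocaine 3) to 0.069 (without saline 5), that of ribosomal RNA rows from -0.15 (without saline 2) to 0.085 (without saline 5), and that of transfer RNA rows from -0.22 (without saline 1) to 0.022 (edgeR), with 0.0062 (without saline 6) as the highest value with a library left out. The difference in the percent of reads in mitochondrial rows was -0.12 and, over protein-coding rows alone, -0.13, and ranged from -0.42 to 0.13 with a library left out. The count at an unadjusted p under 0.05, 3 rows, was 1 without saline 5, saline 6, cocaine 4 or cocaine 6, 5 without saline 1 or cocaine 3, and 6 without cocaine 1; library weights gave 5. Only mt-Tn was in all of these counts. With the replicate number as a block 4 rows were under 0.05 and 0 past adjustment; same-numbered libraries had correlations of -0.399 to 0.435 and 2 of 6 matched best with their own number, so the numbers were not taken to pair the libraries. Summing 8 of the 10 rows that share 50-base windows with annotated copies (not mt-Nd5 and mt-Rnr2) with those copies, chosen after seeing the data, called 0 rows. The rows mt-Tv, mt-Ti, mt-Tq, mt-Ta and mt-Tt had means under 10 normalised reads and the least depth.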

Other observations

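Haemoglobin transcripts, taken as markers of red blood cells, were the marker group that stood most toward the cocaine group. Which cells they came from was not tested. Of 4 tested members of that group 4 were higher, against 53.7 percent of all tested genes, with a median log2 difference of 0.50. By limma 1 member had an unadjusted p under 0.05, against 1.14 percent of all tested genes. Past limma's adjusted threshold there were 0, against 0 percent of all tested genes. Hbb-bs averaged 615 ± 236 normalised reads in the saline group and 835 ± 241 in the cocaine group (SD, n = 6; log2 difference 0.47 ± 0.21, SE; unadjusted limma p = 0.0454, exact p = 0.0887). Summed red blood cell markers ran from 787 to 2717 in saline libraries, saline 5 being the highest, and from 1317 to 2531 in cocaine libraries. Of 8 oligodendrocyte markers 8 were lower in the cocaine group, with a median of -0.19, and of 6 microglial markers 5 were lower, Cx3cr1 among them (-0.22 ± 0.10, SE; exact p = 0.0628). None of these lists had a member past the adjusted threshold.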
